A study of Drosophila melanogaster with 6 samples.

Results

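Genes of the epidermal growth factor receptor (EGFR) pathway were followed in wing imaginal discs of Drosophila melanogaster, the larval precursors of the wing and notum of the adult fly. The genes were chosen by name: the ligand gene spi, the receptor gene Egfr, the repressor gene cic, and the response or feedback genes aos, sty, pnt, rho, vn, kek1 and Mkp3. Of these 10 genes, 7 were found among the 10117 named genes of the arrays (11303 features tested in all), and pnt, rho and vn were not analysed here. In the first group, labelled ap>YAP/Yki, 3 samples of wing disc tissue carried a YAP/Yki transgene under the apterous driver, which acts in dorsal cells of the disc; Yki is the coactivator that drives growth when Hippo signalling is low. The second group, labelled ap>YAP/Yki+dTcf/Pan-RNAi, held 3 samples that carried the same driver and YAP/Yki along with RNA interference that targets pan, the gene for dTcf, through which Wg (Wnt) signals reach their target genes. All discs were dissected 7 days after induction, and both groups therefore express Yki. The question is how EGFR pathway transcripts in Yki-expressing discs compare with and without the pan hairpin. The level of pan was not analysed here, which leaves its knockdown unchecked, and the titles list neither discs without Yki nor a control hairpin.

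In flies, EGFR is activated by secreted ligands. Spitz, the product of spi, is made as a membrane-bound precursor that Star carries to the Golgi and a Rhomboid protease cleaves, whereas Vein needs no cleavage. The active receptor works through Ras, Raf and MAP kinase, which relieve repression by the HMG-box protein Capicua (cic) and the ETS protein Yan (aop) and activate the ETS protein Pointed. Signalling induces its own inhibitors, among them Argos (aos), a secreted protein that binds Spitz, Sprouty (sty), an intracellular inhibitor, Kekkon1 (kek1), a transmembrane protein that binds the receptor, and the MAP kinase phosphatase Mkp3. In the wing disc the pathway first helps to specify the notum and dorsal identity and later the veins.

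Transcripts of the ligand gene spi, the receptor gene Egfr and the repressor gene cic were higher in discs with pan RNAi, by 1.32-fold, 1.29-fold and 1.18-fold. None of the 4 measured response genes passed the limma test; before adjustment 1 of them, Mkp3, had a p under 0.05 (as had 39.5% of all features), with a lower level. Values below are the authors' log2 levels. Each group has n = 3 arrays, and a change is pan RNAi minus no pan RNAi, with the standard error of the limma fit; rose and fell are written for genes with a Benjamini-Hochberg adjusted p under 0.05 over all 11303 features. The labels do not state whether separate crosses or animals were used; p-values therefore rest on the spread among these samples alone, which may be technical, and the number of arrays limits the precision. By this rule 12.1% of all features rose and 13.4% fell, and the groups did not overlap for 44.9%. The median change over all features was 0.03.

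The arrays of a group were close to each other, with correlations over all tested features of 0.994 to 0.996 within and 0.980 to 0.986 between groups. Of 7 measured wing disc epithelium markers, all were present at mean levels of 9.72 or more. Of these 2 rose (ap and tsh) and 3 fell (nub, vg and Dll), beside 12.1% and 13.4% of all features. Markers of some other cells also differed between the groups, and their counts stand beside the same shares of all features. Among 5 muscle and 2 fat body markers 0 passed, and 1 of 6 neuron and glia markers rose (elav). The fat body gene Lsp2 ranged from 7.08 to 8.81 among the arrays without pan RNAi. Of 5 myoblast markers, 4 fell (twi, zfh1, Him and htl) and 1 rose (sns), and their summed level, on a log2 scale, lay between 11.37 and 11.47 without pan RNAi and between 11.07 and 11.15 with it. Of 7 haemocyte markers, 4 rose (Hml, Sr-CI, He and Pxn) and 2 fell (Ppn and Col4a1), with a summed level of 11.41 to 11.47 without and 10.86 to 10.99 with pan RNAi. The bright member Ppn sets that direction, and the sum of the other 6 lay between 10.17 and 10.35 without pan RNAi and between 10.41 and 10.64 with it. Of 4 tracheal markers, 3 fell and 0 rose, with a summed level of 13.58 to 13.65 without and 13.20 to 13.31 with pan RNAi. In limma without adjustment, 4 were lower and 0 higher at a p under 0.05, beside 39.5% of all features in either direction. The tracheal sum rests mostly on verm, serp and Gasp, with means of 12.33, 11.90 and 11.69 without pan RNAi, against 7.22 for btl. Whether all of this RNA came from tracheal cells was not tested. Whole discs were measured, so fewer cells of a type and less RNA per cell cannot be told apart, and the part of these cells in the results below was not tested.

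The level of spi was 11.74, 11.89 and 11.81 in the 3 arrays without pan RNAi and 12.24, 12.25 and 12.16 in the 3 with it. All pan RNAi arrays lay above all others, by more than the spread within either group. The change was 0.40 ± 0.06 (95% interval 0.26 to 0.53, adjusted p = 0.00416), and 9.35% of all features had a larger absolute change. The level of Egfr was 10.85, 10.87 and 10.83 without and 11.20, 11.26 and 11.19 with pan RNAi. The groups were again apart, and the arrays within each group lay closer together than for spi, with SDs of 0.020 and 0.037. Egfr changed by 0.37 ± 0.04 (95% interval 0.27 to 0.48, adjusted p = 0.00218). The level of cic, whose protein represses genes that EGFR signalling turns on, was 11.24, 11.16 and 11.18 without and 11.46, 11.45 and 11.40 with pan RNAi. This is the smallest of the 3 rises, 0.24 ± 0.05 (95% interval 0.13 to 0.35, adjusted p = 0.0110), and 22.3% of all features had a larger absolute change. Thus 3 of the 7 genes rose, or 42.9% beside 12.1% of all features, but spi, Egfr and cic had been picked out with earlier results of these arrays known, so nothing is read from that share.

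Of the response genes, aos was at 8.88, 8.61 and 8.35 without and 8.88, 8.96 and 8.83 with pan RNAi. The groups overlapped, and Yki replicate 1 was as high as the pan RNAi arrays, and the SD was 0.264 without against 0.064 with pan RNAi. Its change of 0.27 ± 0.13 had a 95% interval of −0.03 to 0.57 (adjusted p = 0.155), which includes both no change and a rise as large as that of spi. Without Yki replicate 1 the change was 0.41 and passed the test (adjusted p = 0.0297), whereas without Yki replicate 3 it was 0.14 (adjusted p = 0.325). The level of sty was 10.23, 10.24 and 10.18 without and 10.34, 10.34 and 10.19 with pan RNAi. Pan RNAi replicate 3 fell among the arrays without pan RNAi, and the 95% interval of the change ran from −0.06 to 0.21 (adjusted p = 0.369).

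For kek1 the levels were 10.78, 10.75 and 10.74 without and 10.55, 10.78 and 10.63 with pan RNAi. The pan RNAi arrays were spread more widely (SD 0.115 against 0.024) and overlapped the others, and the interval of the change was −0.26 to 0.05 (adjusted p = 0.289). The level of Mkp3 was 10.08, 10.10 and 10.02 without and 9.88, 9.99 and 9.93 with pan RNAi. Here the groups did not overlap and the pan RNAi arrays were the lower ones, but the change of −0.14 ± 0.05 (95% interval −0.25 to −0.02) did not pass the adjusted test (adjusted p = 0.0916). The median change over the 4 response genes was −0.01, beside 0.03 over all features. With each array centred on its median these medians were 0.04 and 0.09. The upper bounds for sty, kek1 and Mkp3 lay under the lower bounds for spi and Egfr, which had been picked out with earlier results of these arrays known.

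**Figure D1:**
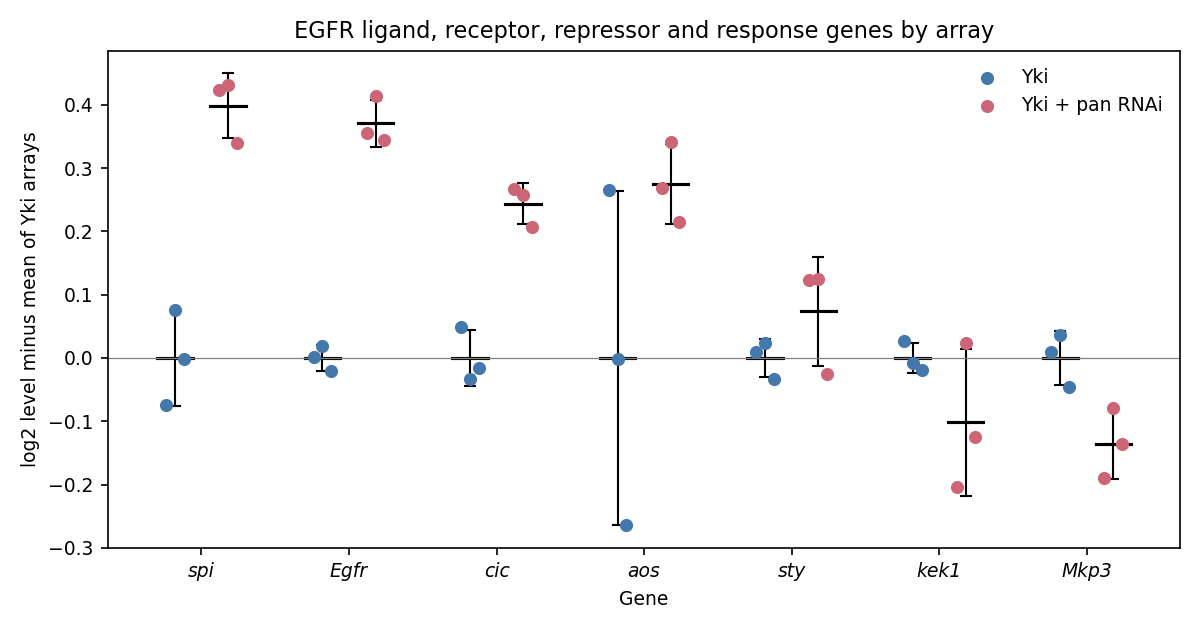
Log2 level of each of the 7 genes in each array (points), given as the difference from the mean of the 3 Yki arrays; bars are group means with SD, n = 3 per group. The pan RNAi arrays lie above all Yki arrays for spi, Egfr and cic, overlap them for aos, sty and kek1, and lie below them for Mkp3.

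The ligand, receptor and repressor genes were set against each response gene by taking the difference of the 2 log2 levels within each array. Whether the changes of a pair differ was tested with a two-sided exact permutation test, whose smallest p with 3 against 3 arrays is 0.10. The change of Egfr exceeded that of Mkp3 by 0.51, that of kek1 by 0.47 and that of sty by 0.30, with no overlap between the groups. For spi the differences from Mkp3, kek1 and sty were 0.53, 0.50 and 0.32, and for cic they were 0.38, 0.35 and 0.17, also with no overlap. Against aos the differences were 0.12 for spi, 0.10 for Egfr and −0.03 for cic, and the groups overlapped in all 3 pairs. With the pairs of spi and the other ligand genes, 14 pairs were compared and 11 did not overlap, each of these at the smallest exact p (0.10, adjusted 0.127 over the 14 pairs). No pair could therefore pass 0.05, and the pairs share genes. Because spi, Egfr and cic had been picked out with earlier results of these arrays known, such differences were likely from the start. Nothing is read from their size or lack of overlap.

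Of the 3 measured ligand genes, 1 passed the test, spi, beside 25.5% of all features in either direction. As spi had been picked out with earlier results of these arrays known, nothing is read from that count. Krn, which encodes Keren, a ligand of the same cleaved type as Spitz, was at 11.37, 11.24 and 11.23 without and 11.11, 11.17 and 11.03 with pan RNAi. All pan RNAi arrays were lower, yet the change of −0.18 ± 0.06 did not pass (95% interval −0.32 to −0.03, adjusted p = 0.0747). The germline ligand gene grk was dim, with means of 6.18 and 6.02, among the dimmest features (mean level under 6.79), and its change was −0.16 (adjusted p = 0.108). The change of spi exceeded that of Krn by 0.58 and that of grk by 0.56, without overlap of the groups (exact permutation p = 0.10 each). That p is the smallest this test can give here, and spi was a picked gene, so nothing is read from these differences. Of the genes for ligand trafficking, S, which encodes Star, had a mean of 10.81 without and 10.76 with pan RNAi (95% interval of the change −0.16 to 0.06). The cargo receptor gene cni, which acts in the transport of the Gurken ligand, had an interval of −0.22 to 0.12 (adjusted p = 0.638).

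Across the pathway, counting ligands, trafficking factors, the receptor, transducers, negative regulators and nuclear effectors, 27 of 40 listed genes were measured. Of these 6 rose (22.2%, beside 12.1% of all features) and 0 fell, with a median change of 0.07. Leaving out spi, Egfr and cic, which had been picked out with results known, 3 of 24 rose (12.5%), close to the share of all features. In limma without adjustment, 9 of the 27 were higher and 5 lower at a p under 0.05. Of all features 39.5% had such a p, 2308 being higher and 2162 lower. The 9 include the picked genes spi, Egfr and cic. With limma's intensity trend and robust settings 8 rose and 2 fell, beside 1516 and 1735 of all 11303 features. The 6 were spi, Egfr, cic, cnk, PTP-ER and Nf1. The groups did not overlap for 16 of the 27 genes, with spi, Egfr and cic among them (59.3%, beside 44.9% of all features). Leaving out 1 array brought the number that rose to 3 to 5, beside 765 to 1153 of all features. It was 3 without Yki replicate 2, without Yki replicate 3, without pan RNAi replicate 1 and without pan RNAi replicate 2. There spi, Egfr and cic were the only calls, and they were among the calls whichever array was left out. A minimum change of 1 on the log2 scale, which the submitters' design also required, leaves 1.53% of all features and 0 of the 27.

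**Figure D2:**
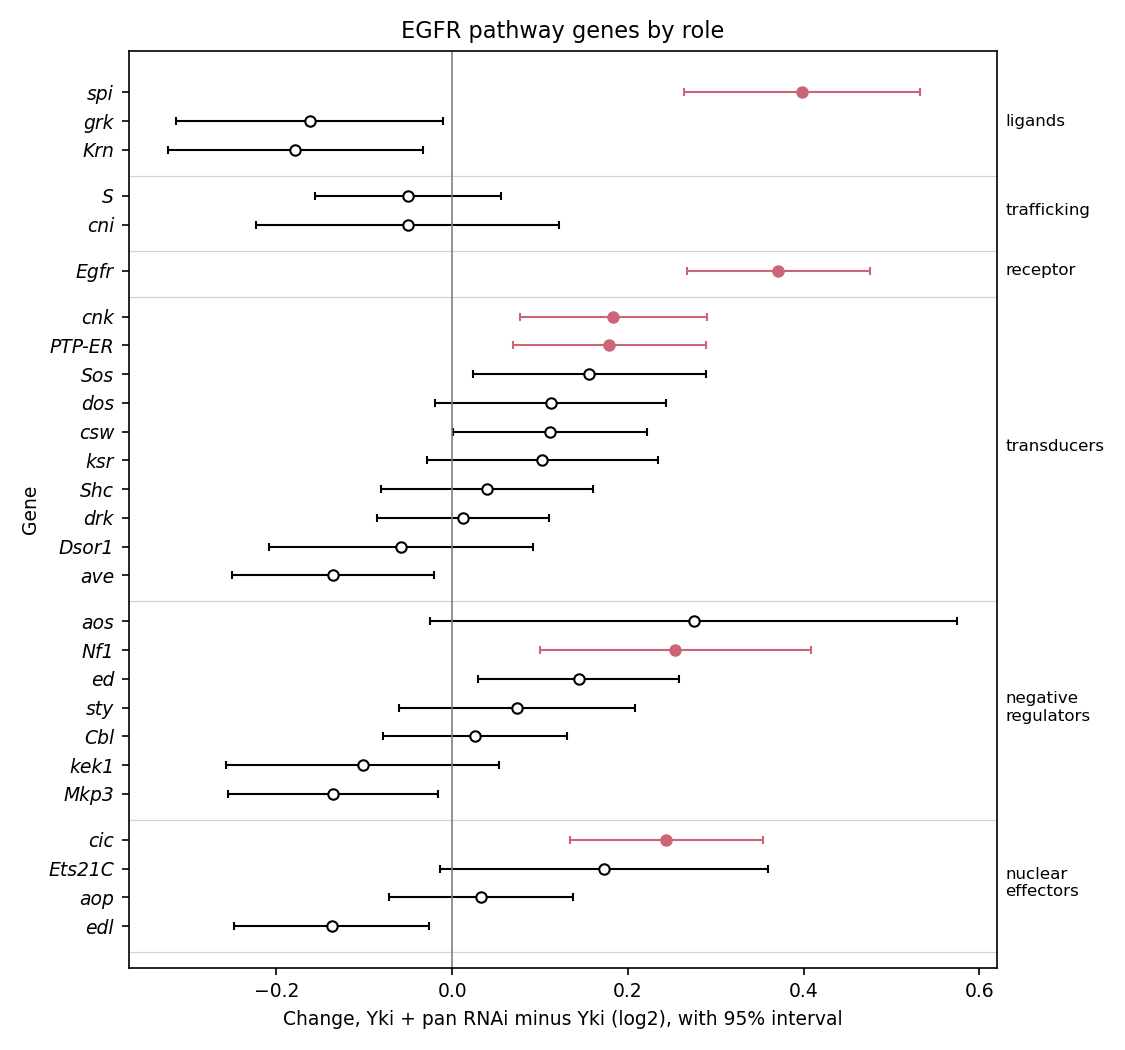
Change of each of the 27 measured EGFR pathway genes (pan RNAi minus no pan RNAi, log2) with its 95% interval from limma, grouped by role. PTP-ER is drawn with the transducers. Filled red points mark the 6 genes that rose at an adjusted p under 0.05, and open points the 21 that did not pass.

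Among 10 measured genes listed as signal transducers, 2 rose and 0 fell, beside 12.1% and 13.4% of all features. In limma without adjustment, 4 were higher and 1 lower at a p under 0.05, beside 39.5% of all features in either direction. The scaffold gene cnk, whose protein links Ras and Raf, was at 9.90, 9.93 and 9.93 without and 10.12, 10.13 and 10.05 with pan RNAi. Its change was 0.18 ± 0.04 (adjusted p = 0.0258), and its groups were apart. PTP-ER, which encodes a phosphatase that inactivates the MAP kinase, was at 9.37, 9.33 and 9.34 without and 9.49, 9.50 and 9.58 with pan RNAi (0.18 ± 0.05, adjusted p = 0.0309). It is counted in this list although its protein acts against the signal. The Ras exchange factor gene Sos changed by 0.16 (adjusted p = 0.0847) and the SHP2 phosphatase gene csw by 0.11 (adjusted p = 0.124). The adaptor genes drk and Shc and the MEK gene Dsor1 had changes between −0.06 and 0.04, and the 95% interval for drk was −0.09 to 0.11. Ras85D, Raf, rl and Src42A were not analysed here.

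Of 7 measured genes listed as negative regulators, a list that leaves out PTP-ER, 1 rose, beside 12.1% of all features. This was Nf1, which encodes a GTPase-activating protein that turns Ras off. Its level was 9.33, 9.49 and 9.47 without and 9.67, 9.76 and 9.61 with pan RNAi (0.25 ± 0.06, adjusted p = 0.0302). The groups did not overlap, but the distance between the nearest arrays of the groups was smaller than the range within either group. The adhesion gene ed, whose product Echinoid dampens EGFR signalling, changed by 0.14 (adjusted p = 0.0701), and Cbl, a ubiquitin ligase gene that acts on active receptors, had an interval of −0.08 to 0.13. Among 4 nuclear effectors cic alone rose, beside 12.1% of all features. Because cic had been picked out with earlier results of these arrays known, nothing is read from that count. The repressor gene aop was at 11.80 without and 11.83 with pan RNAi (interval −0.07 to 0.14). The ETS modulator gene edl changed by −0.14 (adjusted p = 0.0737) and the ETS gene Ets21C by 0.17 (adjusted p = 0.151), and neither passed.

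With each array left out in turn, the change of spi was 0.36 to 0.44 and its adjusted p at most 0.0210, and the change of Egfr was 0.35 to 0.38 and its adjusted p at most 0.0121. The change of cic was 0.23 to 0.27, and its adjusted p came close to the threshold, at 0.0468 without Yki replicate 2. The adjusted p of PTP-ER exceeded 0.05 whichever array was left out (0.0514 to 0.0999). Those of cnk and Nf1 exceeded it with any array left out except pan RNAi replicate 3, and reached 0.0861 and 0.0822. Calls were also lost among all features, of which 765 to 1153 rose with an array left out against 1369 with none left out. Because spi, Egfr and cic had been picked out with earlier results known, nothing is read from how they compare with these genes.

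**Figure D3:**
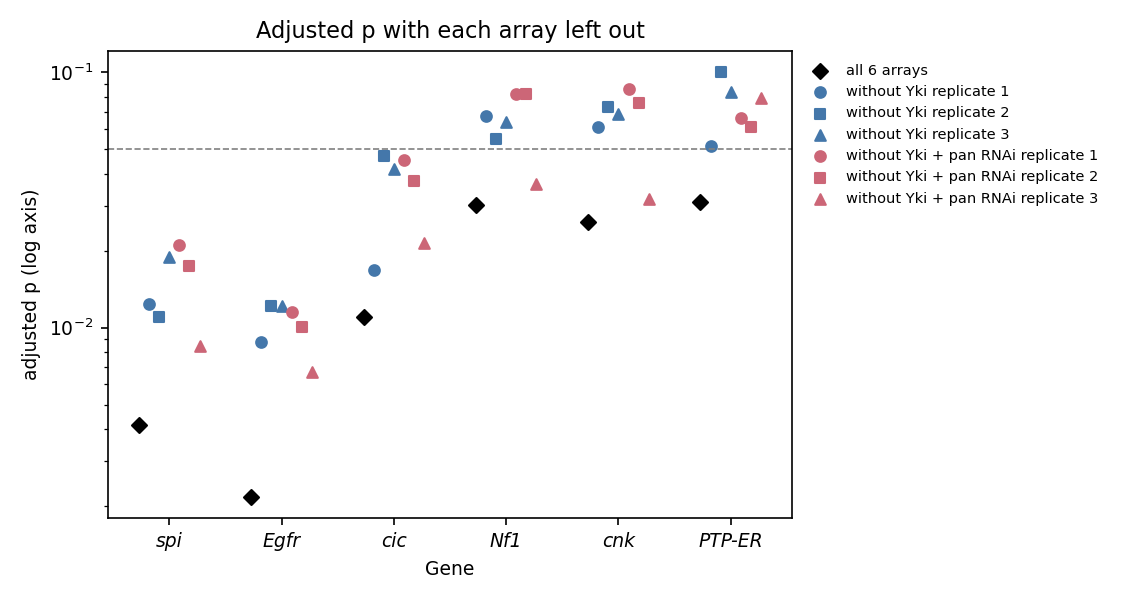
Adjusted p (log axis) of the 6 pathway genes that rose, from limma on all 6 arrays (black) and with each array left out in turn (blue, a Yki array left out; red, a pan RNAi array left out); the dashed line is 0.05. All points of spi, Egfr and cic lie below the line, while most points of Nf1, cnk and PTP-ER with an array left out lie above it.

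Genes that are known to be repressed by Capicua in some fly tissue were looked up beside the rise of cic. Of 9 listed, 5 were measured, with a median change of 0.17, beside 0.03 over all features. Of the 5, 1 rose and 1 fell, beside 12.1% and 13.4% of all features. The cyclin gene CycE, repressed by Capicua in intestinal stem cells and also a target of Yki, was at 11.40, 11.39 and 11.45 without and 11.77, 11.81 and 11.79 with pan RNAi. The groups were far apart relative to their spread (0.38 ± 0.04, adjusted p = 0.00192). The homeobox gene mirr, repressed by Capicua in the ovary, was at 11.53, 11.51 and 11.46 without and 11.14, 10.99 and 11.22 with pan RNAi, and fell by 0.38 on the log2 scale (SE 0.07, adjusted p = 0.00789). The others, aos, Ets21C and the dim gene tll (means 6.42 and 6.28), did not pass.

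In the early disc, EGFR signalling is needed for ap, the selector gene of the dorsal compartment, and for mirr, ara and caup, the Iroquois homeobox genes of the lateral notum. All 4 were measured and all changed, 1 up and 3 down, beside 25.5% of all features that changed in either direction. Caup was at 10.88, 10.80 and 10.81 without and 10.02, 10.10 and 10.02 with pan RNAi (−0.79 ± 0.05, adjusted p = 0.00032). Ara went the same way, from 8.75, 8.81 and 8.81 to 8.21, 8.28 and 8.21 (−0.55 ± 0.05, adjusted p = 0.00069). The level of ap rose from 10.90, 10.89 and 10.89 to 11.24, 11.28 and 11.29 (0.37 ± 0.04, adjusted p = 0.00182). The 3 Iroquois genes thus moved opposite to spi and Egfr, and ap in the same direction. The transgenes were driven through ap, and the part of the driver in the level of ap was not tested.

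Of 8 measured vein and intervein genes, 3 fell and 1 rose, beside 13.4% and 12.1% of all features. Their median change was −0.21. The related nuclear receptor genes kni and knrl, which set the position of the second longitudinal vein, had the largest changes in this list. The level of kni was 10.73, 10.57 and 10.67 without and 9.36, 9.52 and 9.49 with pan RNAi. The gap between the groups was many times the spread within them, and the change was −1.20 ± 0.07 (2.29-fold lower, adjusted p = 0.000254). The level of knrl fell by 0.98 on the log2 scale (SE 0.06, adjusted p = 0.000363). The helix-loop-helix inhibitor gene emc changed by −0.28 ± 0.05 (adjusted p = 0.0103), and px, which restricts veins, by 0.17 ± 0.05 (adjusted p = 0.0351), the latter call ending with any array left out except Yki replicate 1 (adjusted p = 0.0703 to 0.102). The POU gene vvl, expressed in veins, changed by −0.26 ± 0.08 (adjusted p = 0.0550; 0.0156 without pan RNAi replicate 2 and up to 0.142 with another array left out), and the Notch ligand gene Dl by −0.11 (adjusted p = 0.134). The intervein gene bs changed by −0.15, with an interval of −0.33 to 0.03, and net, which represses rho, by 0.07 (interval −0.03 to 0.18).

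**Figure D4:**
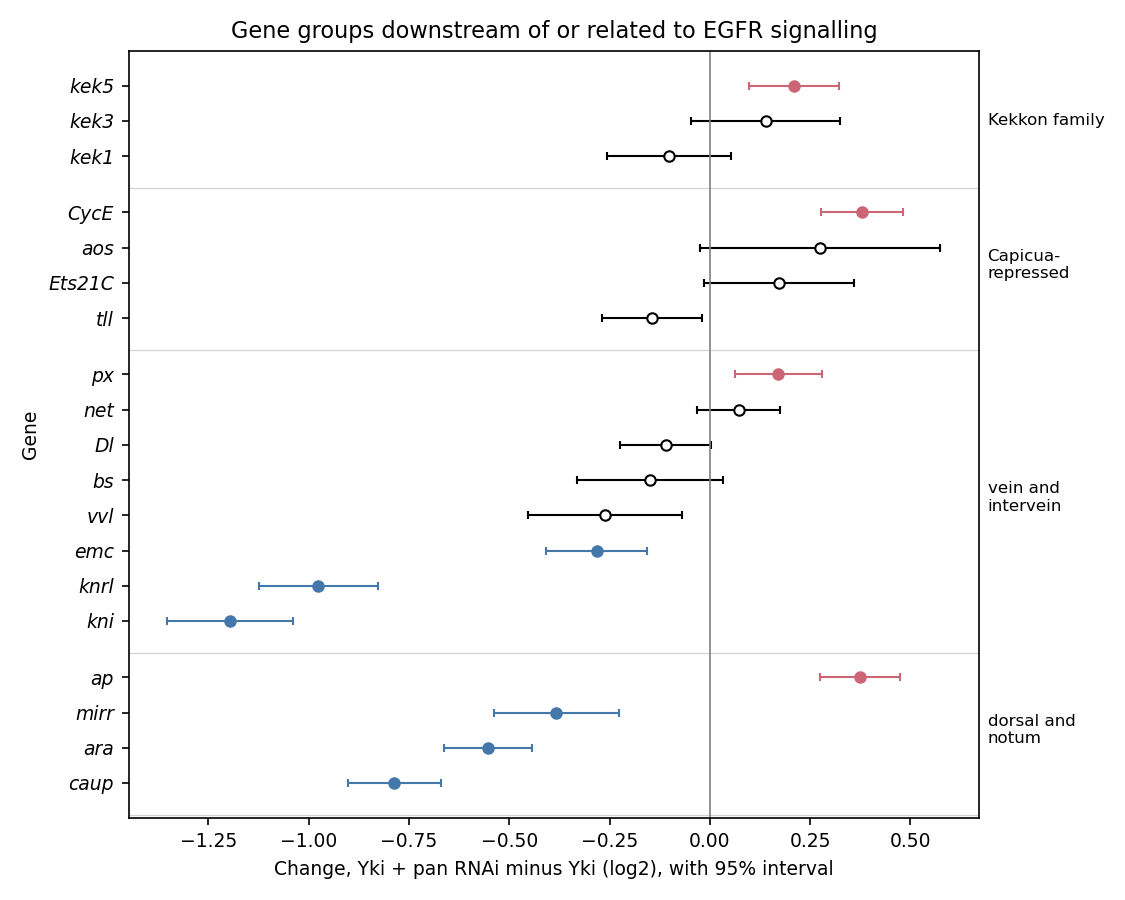
Change (pan RNAi minus no pan RNAi, log2) with its 95% interval from limma for genes related to EGFR signalling, in 4 groups; each gene is drawn once, although aos, kek1 and mirr stand in more than 1 list. Red points rose, blue points fell and open points did not pass the adjusted p of 0.05; kni and knrl lie farthest to the left, and ap and CycE farthest to the right.

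Of the other Kekkon genes, which encode transmembrane proteins with leucine-rich repeats, kek3 and kek5 were measured. Kek5 was at 10.36, 10.38 and 10.27 without and 10.53, 10.57 and 10.54 with pan RNAi, and rose by 0.21 ± 0.05 (adjusted p = 0.0199). This call ended without Yki replicate 3 (adjusted p = 0.0627), without pan RNAi replicate 1 (0.0552) and without pan RNAi replicate 2 (0.0604). The dim gene kek3 had means of 6.30 and 6.44 (adjusted p = 0.233). In kek5 the pan RNAi arrays were all higher, whereas in kek1 they overlapped the others.

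Likeness of pattern was measured as Pearson's r over the 6 arrays against 10116 other named genes, as a description. The genes most like spi were dah (r = 0.999), ncd and jim (0.996 and 0.995), those most like Egfr were hzg, Nepl3 and CG13300 (0.998, 0.998 and 0.997), and those most like cic were mthl10, CG3356 and ftz-f1 (0.999, 0.998 and 0.998). These genes also rose, by 0.18 (CG3356) to 1.30 (ftz-f1) on the log2 scale, which was likely because they were chosen for likeness to genes that rose. Values over 0.9 were common, with 950 genes for spi, 1061 for Egfr and 1019 for cic, and the arrays share the difference between the groups.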

How the data were processed

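Per the labels' protocols, TRIzol was used to isolate total wing disc RNA, and the label was biotin. The authors deposited log2 expression levels per feature in 2 tables that differ by at most 5.0e-09; their background correction, normalization and summarisation were not given in the sources used here. Log2 levels run from 2.74 to 14.06. Arrays were grouped by sample title. Of 11325 features, 10139 were named through the platform annotation by a single symbol and a single FlyBase number, with symbols updated in a RefSeq gene table for 9975; for 22 genes the feature with the highest mean was used, leaving 11303. The groups were compared with limma 3.58.1 in R 4.3.3 (lmFit and eBayes, no covariate), with Benjamini-Hochberg adjustment over 11303 features. Named genes were the 10 rule genes, members of each list past the adjusted p (otherwise the one with the lowest p), and 3 most similar genes for spi, Egfr and cic; other members are named to fill in a role and were chosen after their values were seen. The members and lists were chosen with earlier results of these data known. Alternatives covered scaling, dim features, variance settings, array weights, the table and each array left out.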

Additional observations from a re-analysis of the deposited data

How the results depend on the processing

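Over 15 alternatives, spi, Egfr and cic rose in each except with a minimum log2 change of 1, under which their changes of 0.40, 0.37 and 0.24 were too small to be called. With each array left out, these changes were 0.36 to 0.44, 0.35 to 0.38 and 0.23 to 0.27. The pathway genes that rose numbered 3 to 5 with an array left out and 0 with the fold minimum. Sos and ed also rose with median centring, with quantile normalization and with intensity trend and robust settings. With dim features left out ed also rose, and with median centring dos also rose. Those that fell numbered 0 with each array left out, 1 with quantile normalization (grk), with features of a mean under 6.79 left out (edl) and with array weights (edl), and 2 with intensity trend and robust settings (Krn and edl). Beside these, 1372, 1649 and 1760 of all features fell in the settings with 1, and 1735 in that with 2. All features that rose and fell numbered 1369 and 1518, 765 to 1153 and 979 to 1282 with an array left out, and 30 and 143 with the fold minimum. With each array centred on its median, 2086 features rose, so that 65.8% of the calls were rises, against 47.4% before; the array medians differed by −0.05 between the groups, and 9 pathway genes rose. That setting turned the changes of S and cni to 0.00443 and 0.00351, and cni ranged from −0.102 to 0.0250 with an array left out. It also moved the median of the response genes to 0.0402 (−0.06 to 0.02 with an array left out). The titles number the samples but do not say whether same-numbered samples were made together. Deviations of same-numbered arrays from their group means correlated at −0.127, −0.0984 and 0.163, and those of other pairs at −0.281 to 0.345. With 3 arrays per group these values cannot decide whether the samples are paired. A limma fit with the replicate number as a block gave 4 pathway genes that rose (spi, Egfr, cic and Nf1), beside 984 of all features. It gave adjusted p-values of 0.0519 for kek5 and 0.0769 for px, with spi at 0.40, Egfr at 0.37 and cic at 0.24. The sums without Ppn and the count without spi, Egfr and cic were chosen after seeing the data.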

Other observations

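The dosage compensation RNAs of males differed between arrays within a group. The level of lncRNA:roX2 was 8.56, 7.65 and 7.62 without and 6.49, 9.07 and 7.27 with pan RNAi, and that of lncRNA:roX1 was 12.70, 12.25 and 12.25 without and 11.51, 13.25 and 12.09 with pan RNAi. Pan RNAi replicate 2 was the highest and pan RNAi replicate 1 the lowest of all arrays for both. The part of sex composition in the EGFR pathway genes was not tested.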
